A study of Mus musculus with 4 samples.

Results

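The G1 cyclins and their kinases were followed across 4 sorted mouse blood cell populations as 8 genes, chosen by name: the kinase genes Cdk2, Cdk4 and Cdk6, the D-type cyclin genes Ccnd1, Ccnd2 and Ccnd3, and the E-type cyclin genes Ccne1 and Ccne2. They were 8 of 18193 genes that had a probe set with exactly 1 gene symbol. Of the 45101 probe sets on each array, 24 carried exactly 1 gene symbol that belonged to one of them. Each population was hybridised to 1 single-colour Affymetrix array. Granulocytes were bone marrow cells sorted for high granularity and strong staining with antibody to Gr-1, with a purity of 99.4% by morphology. Haematopoietic progenitors (HPC) and the stem cells that repopulate for a short (ST-HSC) or a long term (LT-HSC) were enriched on c-Kit beads and depleted of cells that carried lineage markers (Ter119, B220, CD11b, Gr-1 or the T-cell antigens CD3, CD4 and CD8). HPC were labelled LKS-, in common usage lineage-negative, c-Kit-positive cells without Sca-1. ST-HSC were LKS cells, which carry Sca-1, with CD34, and LT-HSC were LKS cells without CD34. Strain, age and number of mice do not appear in the labels used here. All 4 populations shared the handling: cells were thawed, picked by morphology, packed in lots of 50 or 100 into emptied zonae pellucidae (egg coats), and RNA of 50 to 200 cells was amplified linearly in a kit of 2 rounds. The arrays addressed whether each sorted population had the expression profile of its cell type.

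Cells decide in G1 whether to divide again. D-type cyclins, which are made in response to growth signals, bind CDK4 or CDK6, and these kinases begin to phosphorylate the retinoblastoma protein. E-type cyclins then bind CDK2, which completes that phosphorylation, releases E2F transcription factors and carries the cell into S phase. CDK6 is the D-cyclin partner best known from blood cells, and its level in mouse and human stem cells has been tied to how soon they leave quiescence, while mature neutrophils are post-mitotic. The D cyclins are known to replace each other in part, and mouse embryos that lack all of them die with failing blood formation.

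With 1 array per population no difference has a replicate, no test was possible and no p-value is given. A signal is the deposited intensity of a probe set, and signals below a floor of 120.1, the median of all values, were treated as unmeasured. Each gene was read from the probe set whose log2 signal was highest on average. It was called where the population lay at least 4-fold (and, as a looser rule, at least 2-fold) to one side of every array it was set against. Shares and medians over all genes include genes under the floor on every array, which enter with a difference of 0 and cannot be called. The only measure of error was the SD of the difference between probe sets of the same gene. It was 1.20 log2 units for granulocytes against the mean of the other arrays (2874 genes), 0.80 for HPC against the stem cell arrays (3511 genes) and 0.90 for ST-HSC against LT-HSC (3875 genes). For single pairs of arrays it ran from 1.31 to 1.34 with granulocytes and from 0.89 to 0.95 without them. Variation from one sort or amplification to the next is not part of it. Between 48.7% and 52.5% of probe sets lay above the floor on each array. The ratio of 3′ to 5′ signal of the actin control, a sign of how far amplification reached along transcripts, was 5.75 in granulocytes and 12.2, 16.1 and 14.6 in HPC, ST-HSC and LT-HSC. The same ratio of the Gapdh control was 12.4 in granulocytes and 17.8, 12.4 and 14.9 in HPC, ST-HSC and LT-HSC. The labels were checked against marker genes. All 8 mature granulocyte markers had their highest signal in granulocytes, by at least 4-fold over every other array, and the 7 stem cell markers summed to 885 in granulocytes, 11448 in HPC, 24330 in ST-HSC and 40673 in LT-HSC. The granulocyte markers summed to 370951 in granulocytes, 407 in HPC, 528 in ST-HSC and 17448 in LT-HSC, where 5 of the 8 lay above the floor and Mmp8, Mmp9 and Cxcr2 did not. B-lineage markers summed to 1236 in granulocytes, 6901 in HPC, 567 in ST-HSC and 13741 in LT-HSC. Monocyte markers summed to 40751 in granulocytes, 14331 in HPC, 1243 in ST-HSC and 1104 in LT-HSC, with C1qa and Ms4a7 under the floor on every array. Markers of cumulus and granulosa cells, which surround the egg coat, summed to 8739 in granulocytes, 1601 in HPC, 858 in ST-HSC and 1167 in LT-HSC. Inhba gave 6566 and Ptgs2 1056 of the granulocyte sum, and Amh lay under the floor on every array. The part of such cells in any difference between the arrays was not tested.

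Granulocytes had by far the lowest signals of Cdk4 and Cdk6, under the floor on the main probe set of each, differed little in Cdk2 and had the highest signal of Ccnd3 on its main probe set. Of the 8 genes, 2 were at least 4-fold lower in granulocytes than on each other array, Cdk4 and Cdk6, where 5.22% of all 18193 genes were. None passed 4-fold in the upward direction, where 2.79% of all genes did. By the 2-fold rule the same 2 genes were lower (12.6% of all genes) and 1, Ccnd3, was higher (8.72% of all genes). The median log2 difference of the 8 genes against the mean of the other 3 arrays was −1.61, with a range from −6.53 to 2.09, and the median of all genes was 0. Granulocytes also had the lowest 3′ to 5′ ratio of actin, 5.75 against 12.2 to 16.1 on the other arrays, and its part in these differences was not tested. In such bulk samples fewer cells that express a gene and less RNA of it per cell cannot be told apart.

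**Figure D1:**
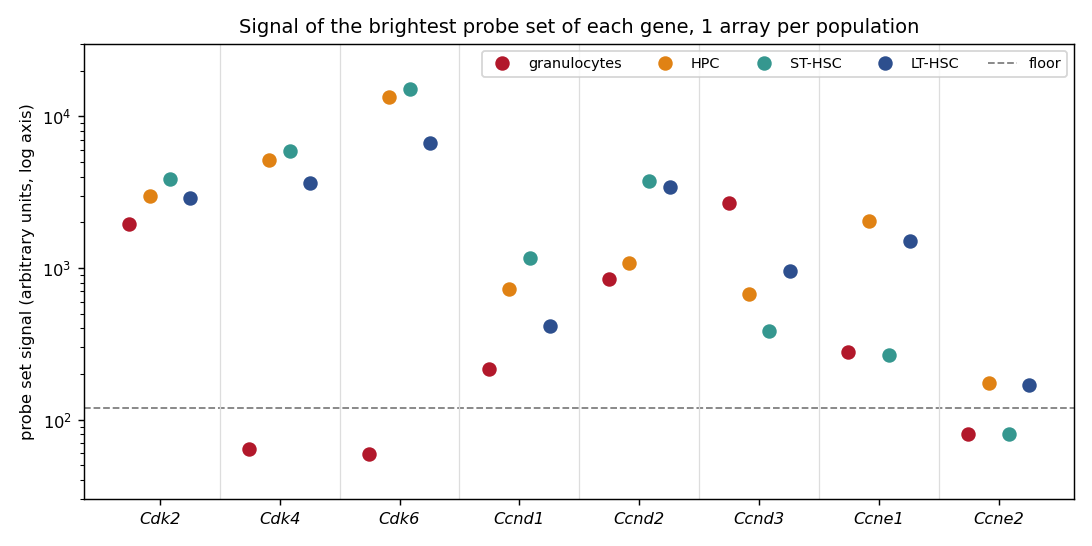
Signal of the representative probe set of each gene (log axis, arbitrary units) in granulocytes, HPC, ST-HSC and LT-HSC, 1 point per array, with the floor of 120.1 as a dashed line. Granulocytes lie under the floor for Cdk4 (63.7) and Cdk6 (59.7) and above all other arrays for Ccnd3 (2677).

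Cdk6, a partner of D cyclins, was lower in granulocytes on both of its measured probe sets. Its main probe set had a signal of 59.7 in granulocytes, 13480 in HPC, 15134 in ST-HSC and 6634 in LT-HSC. Granulocytes were thus at least 112-fold below HPC, at least 126-fold below ST-HSC and at least 55.2-fold below LT-HSC. A separate Cdk6 probe set pointed the same way with smaller size: it read 368 in granulocytes, 4836 in HPC, 3481 in ST-HSC and 4089 in LT-HSC, a gap of 9.45-fold or more. The third lay under the floor on every array, between 4.9 and 89.6.

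Cdk4, the other partner of D cyclins, was lower in granulocytes on all 3 of its probe sets. The brightest had 63.7 in granulocytes, 5159 in HPC, 5940 in ST-HSC and 3633 in LT-HSC, which put granulocytes at least 30.3-fold below the lowest of the others. The remaining Cdk4 probe sets read 81.8 and 41.5 in granulocytes and between 1572 and 4950 elsewhere, so that granulocytes lay at least 13.1-fold and at least 25.7-fold below each other array. The 3 sets share a gene and may share sequence, so they are no independent repeats of the measurement.

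Cdk2, the partner of E cyclins, differed little. Its measured probe set had 1955 in granulocytes, 2967 in HPC, 3843 in ST-HSC and 2878 in LT-HSC. Granulocytes were the lowest, but by only 1.47-fold against LT-HSC, and every step in that order was smaller than the SD between probe sets. The log2 difference against the mean of the other arrays was −0.71 for Cdk2. That of Cdk6 minus that of Cdk2 was −5.81, and that of Cdk4 minus that of Cdk2 was −4.61. The other Cdk2 probe set lay under the floor throughout (3.4 to 48.6).

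Promoters of the 3 kinase genes are shown because Cdk4 and Cdk6 had low signals in granulocytes and Cdk2 did not. RefSeq windows on GRCm38.p6 reach from 250 bases before a transcript start to 50 after it, and they matched 5 of the 8 genes (Cdk2, Cdk4, Cdk6, Ccnd3 and Ccne1). The motifs were picked after the sequences had been read. The E-box CACGTG, a word bound by MYC and related factors, is in capitals for Cdk4 (chr10:127063285-127063584, plus strand) and Cdk6 (chr5:3343643-3343942, plus strand). For Cdk2 (chr10:128705002-128705301, minus strand) the capitals mark a match to an E2F word on the reverse strand.
Cdk4: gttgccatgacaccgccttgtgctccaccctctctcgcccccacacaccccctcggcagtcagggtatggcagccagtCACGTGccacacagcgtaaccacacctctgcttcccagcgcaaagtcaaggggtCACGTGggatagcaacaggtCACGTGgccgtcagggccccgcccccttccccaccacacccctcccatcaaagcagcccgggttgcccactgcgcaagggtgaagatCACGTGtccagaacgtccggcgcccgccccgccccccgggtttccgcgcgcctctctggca
Cdk6: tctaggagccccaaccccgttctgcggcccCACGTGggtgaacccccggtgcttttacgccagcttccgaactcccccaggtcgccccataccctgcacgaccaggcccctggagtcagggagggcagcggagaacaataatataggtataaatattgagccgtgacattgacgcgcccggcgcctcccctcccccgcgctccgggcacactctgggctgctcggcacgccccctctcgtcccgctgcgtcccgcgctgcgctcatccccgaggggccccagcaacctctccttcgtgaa
Cdk2: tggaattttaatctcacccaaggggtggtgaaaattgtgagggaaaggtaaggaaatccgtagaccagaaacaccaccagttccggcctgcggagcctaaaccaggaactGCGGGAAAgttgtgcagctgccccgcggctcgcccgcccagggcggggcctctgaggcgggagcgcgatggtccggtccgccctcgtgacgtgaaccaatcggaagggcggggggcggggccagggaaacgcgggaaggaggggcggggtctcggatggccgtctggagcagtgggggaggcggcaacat

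The Cdk4 window held 4 E-boxes, at positions −172, −118, −98 and −11 from the start, and the Cdk6 window held 1, at position −220. The Cdk2, Ccnd3 and Ccne1 windows held none. An E-box, which reads the same on both strands, occurred in 7.15% of all 32851 windows, and 4 or more occurred in 8 windows. The E2F words searched on both strands were TTTCCCGC, TTTCGCGC, TTTGCCGC and TTTGGCGC. They were found in 2.26% of all windows and, among the matched genes, only in that of Cdk2, at position −140. The GC box GGGCGG, also read on both strands, stood in 35.7% of all windows, and 4 or more matches occurred in 1802 windows (5.49%). There were 6 matches for Cdk2, 4 for Ccne1, 3 for Cdk4, 2 in each of the Ccnd3 windows and none for Cdk6. A match here is a description of letters and not evidence of a bound site.

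The D cyclins did not share a pattern. Ccnd3, the D cyclin needed in mice for the growth of immature lymphoid cells and of granulocyte precursors, had 2677 in granulocytes, 677 in HPC, 382 in ST-HSC and 955 in LT-HSC. Granulocytes were 2.80-fold above LT-HSC, a log2 gap of 1.49 that exceeded the SD of 1.31 between probe sets for that pair, and 7.01-fold above ST-HSC. The other Ccnd3 probe sets did not show this. One read 172 in granulocytes and 67.4, 135 and 177 in HPC, ST-HSC and LT-HSC, and the other read 159 in granulocytes and 74.9, 51.4 and 467 in HPC, ST-HSC and LT-HSC. With the median over the 3 sets the log2 difference of Ccnd3 was −0.19 rather than 2.09.

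Ccnd1, known as an oncogene at chromosome breakpoints in human B-cell lymphoma, had 217 in granulocytes, 728 in HPC, 1166 in ST-HSC and 417 in LT-HSC on its main probe set. Granulocytes were the lowest, 1.92-fold below LT-HSC. Each step between neighbours in that order was smaller than the SD between probe sets, while the span between granulocytes and ST-HSC, at 5.38-fold, was larger. A second set agreed in direction, with 14.9 in granulocytes and 477, 446 and 360 in HPC, ST-HSC and LT-HSC, a log2 difference of −1.82 with granulocytes at the floor. The third set ran the other way, with 193 in granulocytes and 95.7, 10.7 and 29.8 in HPC, ST-HSC and LT-HSC, each of these 3 under the floor.

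Ccnd2, which is needed for division of B cells and granulosa cells in mice, was measured by 7 probe sets that did not all follow one pattern. The representative had 842 in granulocytes, 1084 in HPC, 3768 in ST-HSC and 3424 in LT-HSC, so the signal was high in both stem cell arrays and low in the other 2. A set with the suffix _x_at repeated this, with 661 in granulocytes, 856 in HPC, 3653 in ST-HSC and 4811 in LT-HSC. So did a dimmer set with the suffix _a_at, with 210 in granulocytes, 264 in HPC, 924 in ST-HSC and 858 in LT-HSC. A further set placed HPC with the stem cells instead: it had 310 in granulocytes, 2781 in HPC, 3710 in ST-HSC and 3426 in LT-HSC, and was the only one of the 7 with granulocytes at least 4-fold below each other array (8.96-fold). A set with the suffix _s_at was above the floor on every array and had its highest signal in LT-HSC, 1.74-fold above ST-HSC, a gap within the SD between probe sets. It had 436 in granulocytes, 423 in HPC, 505 in ST-HSC and 877 in LT-HSC. The remaining sets were dim, from 35.9 to 210. In all, granulocytes lay below every other array on 5 of the 7 sets and above every other array on none.

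**Figure D2:**
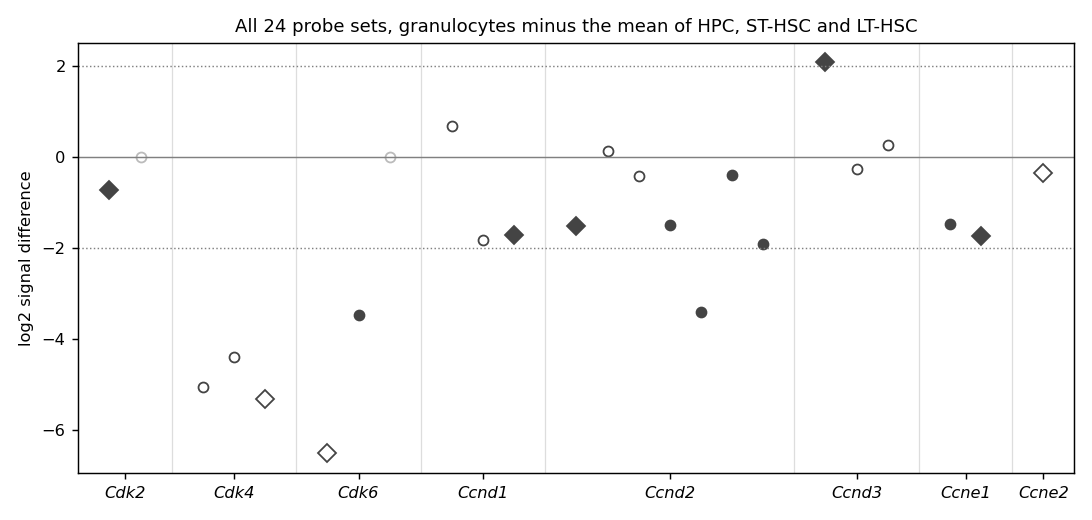
Difference in log2 signal between granulocytes and the mean of HPC, ST-HSC and LT-HSC for all 24 probe sets, grouped by gene. Diamonds mark the representative set, filled points have all arrays above the floor, open points have at least 1 array at the floor, pale points have all arrays there, and dotted lines mark 4-fold. All 3 Cdk4 sets and both measured Cdk6 sets lie beyond the lower line, Ccnd3 has its 3 sets on both sides of 0, and Ccnd2 spreads from −3.40 to 0.14.

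Of the E cyclins, which activate CDK2, Ccne1 was high in HPC and LT-HSC and low in granulocytes and ST-HSC on its main probe set. That set carries the suffix _x_at for probes that can bind other transcripts. Ccne1 had 281 in granulocytes, 2053 in HPC, 269 in ST-HSC and 1512 in LT-HSC on the main probe set, so granulocytes were level with ST-HSC and lay 7.31-fold below HPC. The second Ccne1 set gave the order 182 in granulocytes, 888 in HPC, 310 in ST-HSC and 464 in LT-HSC, with granulocytes lowest and 1.71-fold below ST-HSC. On this second set the gap between ST-HSC and LT-HSC, at 1.50-fold, lay within the SD between probe sets. Both sets had HPC highest and put granulocytes and ST-HSC at the bottom. Ccne2 had a single probe set near the floor, with 80.7 in granulocytes, 175 in HPC, 80.7 in ST-HSC and 169 in LT-HSC. Between granulocytes and ST-HSC no difference in Ccne2 can be given, and HPC stood at least 1.45-fold and LT-HSC at least 1.40-fold above both. Each step in that order that could be measured was smaller than the SD between probe sets.

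HPC, without Sca-1, were set against both stem cell arrays. The kinases lay close to the mean of the stem cell arrays, Ccnd2 was lower in HPC on most probe sets and Ccne1 was higher. None of the 8 genes was at least 4-fold higher (0.275% of all genes) or at least 4-fold lower (0.33% of all genes) in HPC than on both stem cell arrays. By the 2-fold rule none was higher (2.08% of all genes) and 1 was lower, Ccnd2 (2.63% of all genes). The representative Ccnd2 set was 3.48-fold lower in HPC than in ST-HSC and 3.16-fold lower than in LT-HSC. The _x_at set gave 4.27-fold against ST-HSC and 5.62-fold against LT-HSC, whereas the set that placed HPC with the stem cells gave 1.33-fold and 1.23-fold. HPC lay below both stem cell arrays on 5 of the 7 Ccnd2 sets, 3 of them by at least 2-fold. Ccne1 was higher in HPC than on both stem cell arrays on both sets, 7.65-fold and 2.86-fold against ST-HSC and 1.36-fold and 1.91-fold against LT-HSC. The gap of 1.36-fold lay within the SD between probe sets. Against the mean of the stem cell arrays, Cdk2, Cdk4 and Cdk6 had log2 differences of −0.16, 0.15 and 0.43, all within the SD of 0.80. Against LT-HSC alone, Cdk6 was 2.03-fold higher in HPC on its main set (13480 against 6634), a log2 gap of 1.02 above the SD of 0.89 for that pair, and 1.18-fold higher on its second set. The Cdk4 sets were 1.36-fold to 2.11-fold higher in HPC than in LT-HSC. The median of the 8 genes was 0.16, against 0 for all genes. HPC also carried the promyelocyte markers, with a sum of 61524 against 21989 in ST-HSC and 3591 in LT-HSC. Monocyte markers summed to 14331 in HPC, 1243 in ST-HSC and 1104 in LT-HSC. B-lineage markers summed to 6901 in HPC, 567 in ST-HSC and 13741 in LT-HSC. The part of such composition in the differences was not tested.

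ST-HSC were set against LT-HSC, the Sca-1 positive cells with and without CD34. Long-term stem cells are known as the more quiescent of these. Cdk6 and Ccnd1 were higher in ST-HSC and Ccnd3 and Ccne1 lower, but only the difference of Ccne1 passed 4-fold. That made 1 of the 8 genes at least 4-fold lower (1.19% of all genes) and none at least 4-fold higher (0.682% of all genes). By the 2-fold rule 2 were higher, Cdk6 and Ccnd1 (5.33% of all genes), and 2 were lower, Ccnd3 and Ccne1 (7.05% of all genes). Cdk6 was 2.28-fold higher in ST-HSC (15134 against 6634) on its main set and 1.17-fold lower (3481 against 4089) on the second. Ccnd1 was 2.80-fold higher (1166 against 417) and, on its second set, 1.24-fold higher. All 3 Cdk4 sets were higher in ST-HSC, from 1.61-fold to 2.00-fold, and Cdk2 was 1.34-fold higher. Ccne1 was 5.63-fold lower in ST-HSC (269 against 1512) on the main set, which carries the suffix _x_at for probes that can bind other transcripts, and 1.50-fold lower on the second. Ccnd3 was lower in ST-HSC on all 3 sets, with a log2 difference of −1.32 on the main set (382 against 955), 1.31-fold on a dim set just above the floor and at least 3.89-fold on the set where ST-HSC lay under it. Ccnd2 was nearly level on its main set, at 1.10-fold higher, and of its 7 sets 4 were higher and 3 lower in ST-HSC. On the main sets the log2 differences of Cdk6 (1.19), Ccnd1 (1.48), Ccnd3 (−1.32) and Ccne1 (−2.49) exceeded the SD of 0.90 between probe sets, and those of Cdk2, Cdk4, Ccnd2 and Ccne2 did not. The median log2 difference of the 8 genes was 0.28, against 0 for all genes. The 2 arrays also differed in markers of other cells: mature granulocyte markers summed to 528 in ST-HSC and 17448 in LT-HSC, and B-lineage markers to 567 in ST-HSC and 13741 in LT-HSC. Promyelocyte markers summed to 21989 in ST-HSC and 3591 in LT-HSC, and megakaryocyte markers to 3053 in ST-HSC and 1533 in LT-HSC. Their part in the differences of Ccnd3, Ccne1 and the other genes was not tested.

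**Figure D3:**
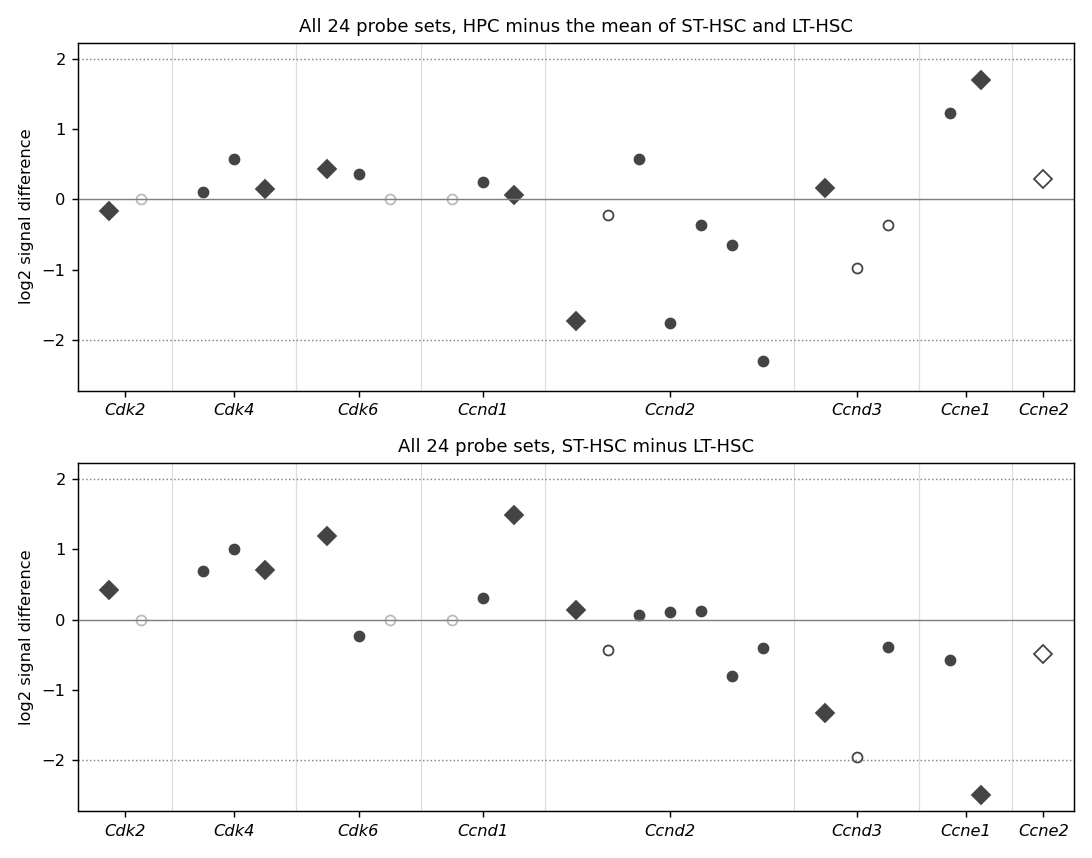
Difference in log2 signal for all 24 probe sets between HPC and the mean of ST-HSC and LT-HSC (top) and between ST-HSC and LT-HSC (bottom), with symbols as in the plot of the granulocyte differences and dotted lines at 4-fold. The Ccnd2 sets run from −2.29 to 0.57 for HPC, and the 2 Ccne1 sets lie at 1.23 and 1.69 for HPC and at −0.58 and −2.49 for ST-HSC.

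Genes around these cyclins and kinases were read from 6 lists of the pathway. Beside the background of 5.22% of all genes past 4-fold downward in granulocytes and 2.79% upward, E2F target genes of the G1/S step were lower most often. Of 12 measured, 6 passed 4-fold downward and none upward, with a median log2 difference of −2.82. Mcm5, a subunit of the helicase that opens replication origins, had 307 in granulocytes, 7512 in HPC, 4368 in ST-HSC and 4304 in LT-HSC, so it was 14.0-fold or more below each other array. Cdt1, which loads that helicase, had 1541 in granulocytes, 20274 in HPC, 12535 in ST-HSC and 7818 in LT-HSC. The other 4 were Ung, Mcm3, Uhrf1 and Tk1, at 22.7-fold, 13.5-fold, 7.71-fold and at least 4.82-fold below the lowest of the other arrays.

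The partners that hold the cyclin-kinase step in check did not share a direction. The 7 inhibitors of cyclin-dependent kinases had a median of 0, with 1 past 4-fold upward and 1 downward in granulocytes, and Cdkn2a and Cdkn2b lay under the floor on every array. Cdkn2d, the gene of the CDK4 and CDK6 inhibitor p19, had 11776 in granulocytes, 910 in HPC, 2352 in ST-HSC and 1229 in LT-HSC, 5.01-fold above the highest of the others. Cdkn1a, the gene of p21, had 876 in granulocytes, 5252 in HPC, 4877 in ST-HSC and 5473 in LT-HSC, 5.56-fold below the lowest of the others. Its log2 difference was −2.57, and −1.88, short of 4-fold, with its first probe set by name. The list held 1 call rather than 2 with that choice and with the median over probe sets.

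Of the 13 pocket proteins and E2F factors, 3 were at least 4-fold lower in granulocytes (Tfdp2, E2f6 and E2f8) and none higher, with a median of −0.44. With the floor at the 75th percentile of all values Tfdp2 alone passed, and E2f6 and E2f8 had log2 differences of −1.91 and −1.26. E2f6 also fell short with its first probe set by name (−1.35) and E2f8 with the median over its sets (−1.55). Tfdp2, which encodes a dimer partner of E2F proteins, had 135 in granulocytes, 4994 in HPC, 2630 in ST-HSC and 3266 in LT-HSC. Rb1, the gene of the retinoblastoma protein, had 4503 in granulocytes, 4253 in HPC, 2539 in ST-HSC and 4481 in LT-HSC on its main probe set. That set was nearly level between granulocytes, HPC and LT-HSC. The other Rb1 set had a difference of opposite sign in each of the 3 comparisons. Of the 12 measured genes for activation and turnover of the G1 kinases, 2 passed 4-fold downward and none upward, with a median of −0.97. These were Ccnh, a subunit of the kinase that activates CDKs, and Skp1, a subunit of the ligase that marks cyclin E for destruction. Ccnh had a log2 difference of −2.87 on its main set and of −1.45, short of 4-fold, with the median over its probe sets, with the first set by name and without sets of suffix _s, _x, _a or _f. Skp1 had −2.44, and −1.75 with the median over its sets, and the list held 1 to 4 such calls over the settings at 4-fold. Among 15 other cyclins the median was 0, with Ccno at least 4-fold higher and Ccnh lower. Among 15 other kinases of the family the median was −0.36, with Cdk1 and Cdk8 at least 4-fold lower and none higher. Cdk1, the mitotic kinase, had 110 in granulocytes, 2204 in HPC, 2044 in ST-HSC and 1076 in LT-HSC.

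**Figure D4:**
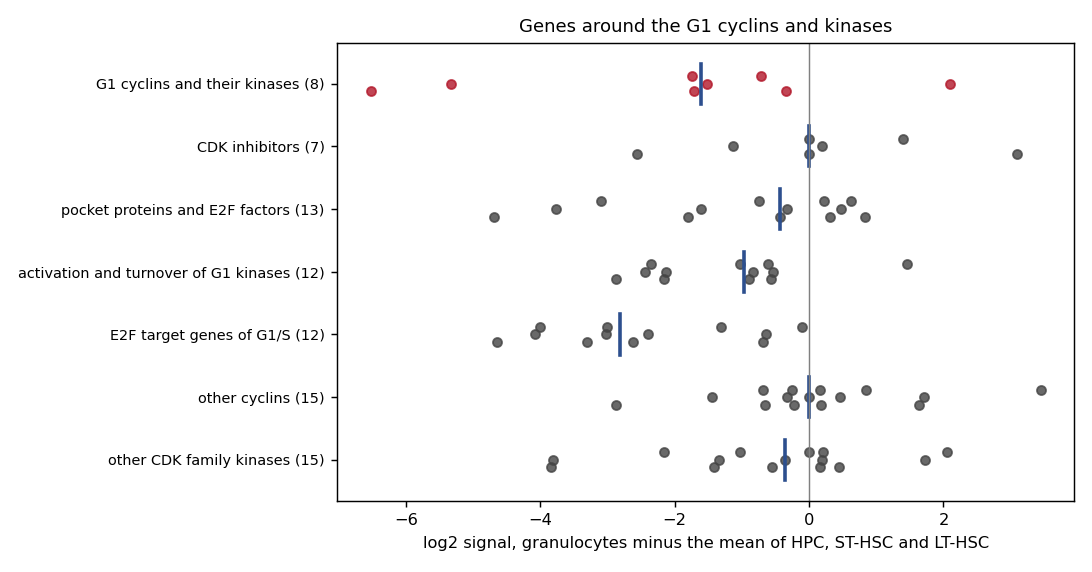
Difference in log2 signal between granulocytes and the mean of HPC, ST-HSC and LT-HSC for each gene of the 8 G1 genes (red) and of the 6 pathway lists (grey), with the median of each as a blue bar and the number of genes with a probe set in brackets. The E2F target genes have a median of −2.82, and the CDK inhibitors are spread around 0 with Cdkn2d highest.

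In HPC none of the 6 lists held a gene at least 4-fold away from both stem cell arrays, and list medians lay between −0.30 and 0.46. Over all genes only 0.275% were that much higher and 0.33% lower, so lists this short would seldom hold such a gene. Between ST-HSC and LT-HSC 3 genes passed 4-fold, beside 0.682% of all genes upward and 1.19% downward. Cdkn1c, the gene of p57, which is known for keeping mouse stem cells quiescent, was 4.14-fold lower in ST-HSC (163 against 673 in LT-HSC, with 45.2 in granulocytes and 169 in HPC). E2f2 was 4.61-fold lower, with 453 in ST-HSC and 2092 in LT-HSC. Ccna2, an E2F target and an S phase cyclin, was 4.02-fold higher on its main probe set, with 2822 in ST-HSC and 701 in LT-HSC. Its other probe set was not higher in ST-HSC, and the median over both sets gave a log2 difference of 1.00, against 2.01.

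The profile over the 4 arrays was also set against that of the genes above the floor on at least as many arrays (8150 to 12122 genes, depending on the member), by the root mean square difference of log2 signals after centring each gene on its own mean. With 4 arrays this describes likeness only and many genes come close by it. Nearest to Cdk4 were Dkc1, Hacd3 and Pa2g4, at 0.17, 0.21 and 0.22. Dkc1, a component of telomerase and of small nucleolar RNA particles, had 123 in granulocytes, 3863 in HPC, 5747 in ST-HSC and 3256 in LT-HSC. Pa2g4 was also the nearest gene to Cdk6, at 0.41, followed by Fkbp3 at 0.44 and Fkbp1a at 0.48. Nearest to Cdk2 were Pmpcb, Tapt1 and Ndufc2, at 0.04, 0.05 and 0.05. Nearest to Ccnd1 were Tacc3, Nop58 and Tma16, at 0.07, 0.08 and 0.09. Nearest to Ccnd2 were Alkbh8, Smyd3 and Cables1, at 0.05, 0.08 and 0.10. Nearest to Ccnd3 were Chmp1a, Pxk and Notch2, at 0.10, 0.11 and 0.11. Nearest to Ccne1 were Polrmt, Pigf and Wdr92, at 0.28, 0.29 and 0.31. Nearest to Ccne2 were Zfp120, Gm14133 and Acp5, each at 0.02. Cdk4 and Cdk6 entered at the floor in granulocytes and Ccne2 in granulocytes and ST-HSC, so their distances rest in part on values under the floor.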

How the data were processed

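Per the labels' protocols, 4 sorted populations were each amplified and hybridised to 1 Affymetrix array. The authors deposited probe set intensity on a linear scale, and the 2% trimmed mean was the same on every array, so values were used as deposited. Which software summarised the probes, and whether it called detection, is not given in the sources here. The arrays hold 45101 probe sets. The 64 controls among them were left out of every comparison, and 34945 carried exactly 1 symbol in the platform annotation, 932 several and 9160 none. Values under the floor of 120.1 were set to it before log2, a difference with one side at the floor is a lower bound, and none is given where both sides are. The probe set with the highest mean log2 intensity stood for a gene. Calls needed 4-fold, or 2-fold, in 1 direction against each compared array, over all 18193 genes. Named genes were the 8 members, the genes of the pathway lists past 4-fold, and the 3 nearest profiles per member. Rb1, Cdkn2a, Cdkn2b and single marker genes (Mmp8, Mmp9, Cxcr2, C1qa, Ms4a7, Inhba, Ptgs2 and Amh) were named outside that rule after their values were seen. The 8 members, the lists and the rules were chosen with earlier results of these data known, and the promoter motifs after the sequences were read. All 8 members matched RefSeq by Entrez identifier. Scripts used pandas 2.3.3 and numpy 2.4.6 on Python 3.11.15, with matplotlib 3.10.9 for figures. The calls were also run on simulated data, with changes placed only in bright genes and noise well below the SD between probe sets. Such a run cannot show how reliable the calls are on these arrays. One array per population limits the precision, and no interval or test can be given. Alternatives were the scaling, the floor, the fold threshold and the choice of probe set.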

Additional observations from a re-analysis of the deposited data

How the results depend on the processing

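Cdk4 and Cdk6 were called at least 4-fold lower in granulocytes under the main setting and all 9 alternatives, with log2 differences from −6.24 to −3.48 for Cdk4 and from −7.53 to −4.68 for Cdk6. The other members were less firm in granulocytes: Ccnd3 ran from −0.19 to 2.33, Ccnd1 from −2.24 to 0.69 and Cdk2 from −1.25 to 0, while Ccnd2 (−2.05 to −1.17) and Ccne1 (−2.28 to −1.35) kept their sign. The 0 of Cdk2 stands for a probe set under the floor on every array and is no measured lack of difference. The single call between ST-HSC and LT-HSC, Ccne1, gave 0 calls with the floor at the 75th percentile of all values, 0 with the first probe set by name, 0 with the median over probe sets and 0 without probe sets of suffix _s, _x, _a or _f. Its log2 difference ran from −2.69 to −0.58, and the call was made on its _x_at probe set. The median of the 8 genes between ST-HSC and LT-HSC was −0.079 with the median over probe sets, against 0.28. By the 2-fold threshold 4 members were called between ST-HSC and LT-HSC and 1 in HPC, against 1 and 0. Between ST-HSC and LT-HSC, Cdk6 ran from −0.23 to 1.31 and Ccnd1 from 0 to 1.60. The 0 of Ccnd1 likewise stands for a probe set under the floor on both arrays.

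Over all genes, 507 were higher and 949 lower by 4-fold in granulocytes, or 65.2% lower. Scaling to the hybridization controls gave 342 and 1375 (80.1% lower), scaling to a common 75th percentile gave 625 and 793 (55.9% lower), and a floor at the 75th percentile gave 383 and 400. The median over probe sets gave 458 and 525. In HPC the counts were 50 and 60 (54.5% lower), against 66 and 57 (46.3%) on the hybridization controls, 63 and 48 (43.2%) at a common 75th percentile, 25 and 11 with the higher floor, 83 and 123 with a floor below the pooled median and 33 and 40 with the median over probe sets. For ST-HSC against LT-HSC they were 124 and 217 (63.6% lower), against 88 and 302 (77.4%), 139 and 175 (55.7%), 30 and 63, 214 and 373, and 79 and 137 in the same order. Among list genes in granulocytes, the higher floor also left Tk1 (−1.16), Cdk1 (−1.97) and Ccno (1.60) short of 4-fold, and the median over probe sets left Uhrf1 (−1.84) short. With that median 4 of the E2F target genes passed 4-fold, against 6 in the main setting, and the log2 difference of Cdt1 was −2.48, against −3.03. For ST-HSC against LT-HSC, Cdkn1c was −0.64 with the higher floor, −1.93 at a common 75th percentile and −1.85 with quantile normalization. Ccna2 was 1.00 and E2f2 −1.53 with the median over probe sets, and Ccna2 was 1.81 on the hybridization controls. The causes were not tested, except that a higher floor removes dim differences by construction. Signal under the floor limits Ccne2 and the third Cdk6 set. No paired analysis was possible because each population had 1 array, and no array could be left out.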
